A study of Mus musculus with 2 samples.

Results

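Histone-modifying enzymes write and erase chemical groups on the tails and cores of the histones that package DNA. Acetyltransferases (Kat genes) add acetyl groups to lysines, and deacetylases (Hdac genes and the NAD-dependent sirtuins, Sirt genes) take them off. Methyltransferases (Kmt, Setd, Setdb, Ezh and Ehmt genes and Dot1l) add methyl groups, and demethylases (Kdm genes) remove them. GABPα is the DNA-binding subunit of the Ets family factor GABP, which recognises a GGAA core and is known for promoters of widely expressed genes.

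The genes described here are the 67 protein-coding mouse genes of the GENCODE M21 annotation whose symbols begin with Hdac, Sirt, Kdm, Kmt, Kat or Setd and a number or letter code, together with Ezh1, Ezh2, Setdb1, Setdb2, Ehmt1, Ehmt2 and Dot1l, out of 21938 protein-coding genes on the chromosomes that carry peaks. They fall into 18 deacetylases, 8 acetyltransferases, 23 methyltransferases and 18 demethylases. The classes follow the gene symbols, and not every product acts mainly on histones, as with the mitochondrial sirtuins. The ChIP-seq experiment mapped GABPα in CD4+ T cells purified with magnetic beads from wild-type C57BL/6 mice, whose age is not given in the sources used here. There was 1 library precipitated with an antibody to GABPα and 1 library of input DNA, made with no antibody, which served as the control of the peak calling. Nothing says how many mice were pooled. As the ChIP was not replicated, all values describe that library and no p-value is given. The deposited list holds the positions of 6782 peaks of mm10 (GRCm38) without height, fold or q value, so peak width is the only size of a peak used here, and the depth of the libraries is unknown from it. A list of intervals carries no expression, so the labelled cell type was not checked against its markers. A gene was counted as having a peak when a peak lay within 1000 bp of any of its annotated transcript starts. Shares are followed by Wilson 95% intervals, which cover counting error only.

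Of the 67 genes, 23 had a peak (34.3%, interval 24.1 to 46.3), against a background of 17.7% of all protein-coding genes (3880 of 21938). By class, peaks were found at 4 of 8 acetyltransferase genes (50%, 21.5 to 78.5), 8 of 18 deacetylase genes (44.4%, 24.6 to 66.3), 5 of 18 demethylase genes (27.8%, 12.5 to 50.9) and 6 of 23 methyltransferase genes (26.1%, 12.5 to 46.5). The intervals of the 4 classes overlap one another. Those of the acetyltransferases and deacetylases lie above the background, and those of the other 2 classes contain it. For the acetyltransferases this did not hold with the outermost start only or with only starts inside a peak, where 3 of 8 genes (37.5%, 13.7 to 69.4) had a peak, against 16.4% and 13.9% of coding genes. Among the deacetylases the share was uneven between sirtuins and Hdac genes. This split was not among the planned results and was made with earlier results of these data known, so its intervals only describe the counts. The sirtuins had a peak at 6 of 7 genes (85.7%, 48.7 to 97.4), and the Hdac genes at 2 of 11 (18.2%, 5.14 to 47.7), close to the background of 17.7%. These 2 intervals are separate by a narrow margin that rests on Sirt1, whose peak lies 982 bp from its start. In windows of 250 or 500 bp 5 of 7 sirtuins had a peak (71.4%, 35.9 to 91.8), and with only starts inside a peak 4 of 7 did (57.1%, 25 to 84.2), Sirt1 and Sirt4 being lost, while the Hdac genes stayed at 2 of 11, so that the intervals overlap. The peaks at Sirt1, Sirt2, Sirt3 and Sirt6 also lay within 1000 bp of a start of another coding gene, as did that at Hdac3. Leaving out the sirtuins, 17 of the remaining 60 genes had a peak (28.3%, 18.5 to 40.8). The enzyme genes have more annotated starts than coding genes in general, with a median of 8 among the 23 genes with a peak and 7.5 among the 44 without, against 5 among coding genes with a peak and 3 among those without. The background of all coding genes was not matched for the number of starts or for promoter CpG, whose medians are given below. When only the outermost start of each gene was used, 22 of the 67 genes (32.8%) had a peak, against 16.4% of coding genes, and Kat6b was the gene lost.

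**Figure D1:**
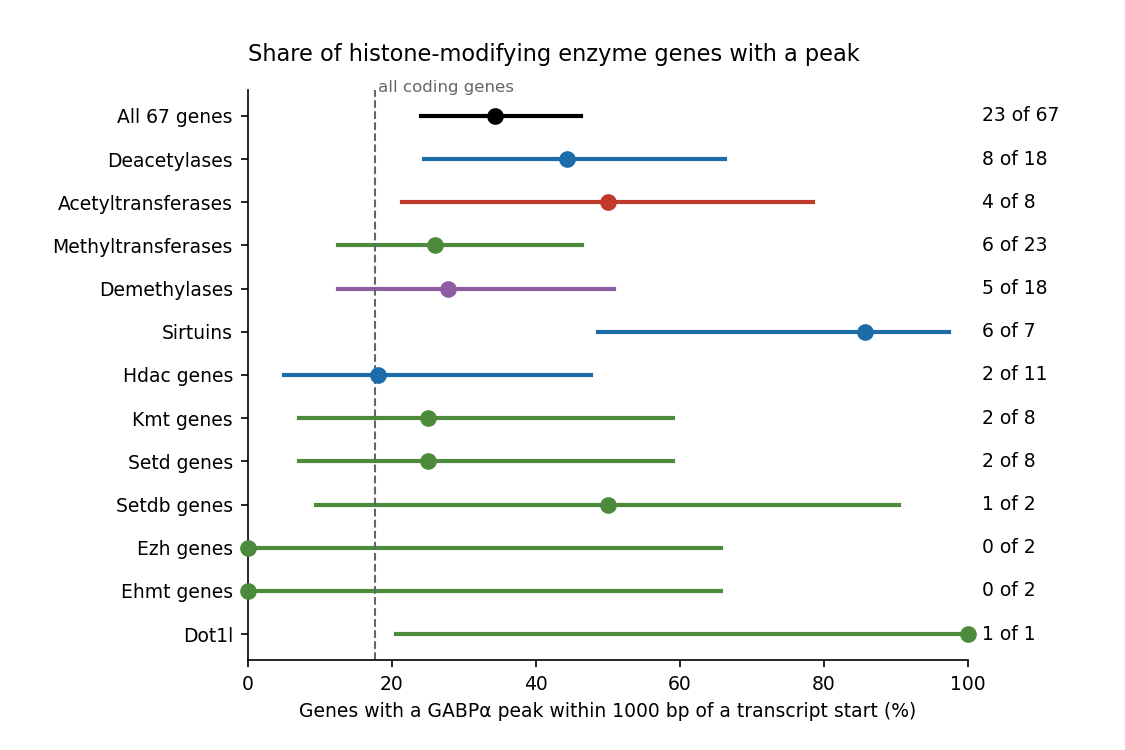
Share of genes with a GABPα peak within 1000 bp of an annotated transcript start (horizontal axis, percent) for all 67 enzyme genes, the 4 classes and their subgroups. Points are shares, bars are Wilson 95% intervals, the numbers at the right are genes with a peak of all genes, and the dashed line marks the 17.7% of all protein-coding genes. The sirtuins stand at 85.7% and the Hdac genes at 18.2%, a split that was not planned and was not tested.

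The sequences under the peaks are shown first, for the widest peak with the GABP motif in each class (Sirt3, Kat5, Kdm5a and Setd5), for every peak that holds 2 or more copies of it (Kat5, Kdm5a, Sirt7, Kdm4d and Setdb1), and for the widest peak without it (Kmt2b). The motif was searched as CCGGAAG on either strand, an exact match that includes the GGAA core. Sequences are read from the mm10 reference on the strand of the gene, 5′ to 3′, in lower case. Capitals mark CCGGAAG, or its reverse complement CTTCCGG where the copy is on the other strand, and in Kmt2b they mark the shorter CGGAAG. Each run is the part of the peak that holds the most copies with at most 30 bases of annotated UTR, so Sirt3 is limited to the site itself, and 1 of the 2 copies at Kat5 and 2 of the 3 at Kdm5a are shown.
Sirt3, chr7:140882365-140882394, minus strand: CTTCCGGcaccgcgggcgcgcggggcatgc
Kat5, chr19:5609928-5610059, minus strand: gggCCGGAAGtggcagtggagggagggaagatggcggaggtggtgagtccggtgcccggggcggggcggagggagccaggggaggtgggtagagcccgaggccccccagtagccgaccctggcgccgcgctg
Kdm5a, chr6:120363950-120364103, plus strand: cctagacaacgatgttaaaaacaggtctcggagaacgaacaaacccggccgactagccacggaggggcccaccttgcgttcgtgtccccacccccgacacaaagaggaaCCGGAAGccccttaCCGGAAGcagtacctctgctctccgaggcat
Setd5, chr6:113076783-113077063, plus strand: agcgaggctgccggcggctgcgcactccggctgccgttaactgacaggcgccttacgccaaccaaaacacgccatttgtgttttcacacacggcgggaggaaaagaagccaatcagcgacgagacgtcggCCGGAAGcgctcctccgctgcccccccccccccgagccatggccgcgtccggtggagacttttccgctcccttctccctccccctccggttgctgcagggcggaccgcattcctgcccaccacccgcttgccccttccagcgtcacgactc
Sirt7, chr11:120624985-120625111, minus strand: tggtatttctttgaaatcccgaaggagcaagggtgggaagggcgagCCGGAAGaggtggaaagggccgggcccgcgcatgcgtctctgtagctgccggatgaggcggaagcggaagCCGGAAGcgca
Kdm4d, chr9:14500465-14500628, minus strand: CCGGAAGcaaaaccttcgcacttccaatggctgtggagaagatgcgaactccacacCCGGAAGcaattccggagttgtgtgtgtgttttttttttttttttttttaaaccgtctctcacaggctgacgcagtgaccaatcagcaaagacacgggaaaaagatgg
Setdb1, chr3:95357173-95357347, minus strand: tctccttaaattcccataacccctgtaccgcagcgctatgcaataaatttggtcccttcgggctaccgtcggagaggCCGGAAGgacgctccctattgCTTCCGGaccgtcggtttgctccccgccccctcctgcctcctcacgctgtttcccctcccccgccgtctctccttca
Kmt2b, chr7:30588811-30589053, minus strand: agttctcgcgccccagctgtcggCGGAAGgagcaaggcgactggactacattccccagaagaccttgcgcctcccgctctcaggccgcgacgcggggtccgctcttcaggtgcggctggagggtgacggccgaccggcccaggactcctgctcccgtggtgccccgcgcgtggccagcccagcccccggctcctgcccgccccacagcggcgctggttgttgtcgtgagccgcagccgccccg

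The 23 genes carried 25 peaks, since Kdm5a and Setd5 had 2 each. CCGGAAG was present in 17 of the 25 (68.0%, 48.4 to 82.8), against 57.2% of the 3459 peaks within 1000 bp of any coding start and 31.7% of all 6782 peaks. The peaks at enzyme genes therefore held the motif at a share whose interval contains that of coding-start peaks in general. The shorter CGGAAG was in 19 of 25 (76.0%), against 76.6% of coding-start peaks, and the bare GGAA was in all 25, against 98.8%. In each of the 17 peaks with CCGGAAG a copy lay within 50 bp of the peak's midpoint, at a median of 9.50 bp from it (range 1 to 26.5). Of the 23 copies, 15 ran on the strand of the gene and 18 lay within 100 bp of one of its starts.

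The median width of the peaks at enzyme genes was 205 bp (interval 172 to 241), the narrowest measuring 109 bp and the widest 291 bp, against a median of 210 bp for coding-start peaks and 157 bp for the whole list. No peak was mostly soft-masked as repeat sequence, and the highest masked share was 20.9% of the bases, at Kat6b. The reads were sequenced to 36 bases, and every stretch of that length in the 25 peaks was found at a single place of the chromosomes. An exact read of the full 36 bases lying wholly inside one of these peaks could therefore not match elsewhere on them. Trimming can leave shorter reads, and shorter stretches were not checked. Sequence flanking the peaks, from which reads can also come, was not checked. The midpoints lay upstream of the gene's nearest start in 24 of 25 peaks (96.0%, 80.5 to 99.3), against 69.3% of coding-start peaks. Their median distance from that start was 68 bp (interval 29 to 99.5), and 42 bp (20 to 99.5) from the nearest start of any coding gene, against 29.5 bp for coding-start peaks. The count of 24 was the same with the starts of all coding genes. It includes Kat8, Sirt2 and the second peak of Setd5, upstream by only 0.5, 0.5 and 1.5 bp. Measured from the gene's outermost start, the midpoint lay upstream in 17 of 25 peaks (68%, 48.4 to 82.8). A start of the gene lay inside the peak in 16 of 25 (64%, 44.5 to 79.8), against 80.2% of coding-start peaks. In 3 genes (Sirt1, Sirt3 and Kdm4d) another coding gene's start lies nearer to the peak, as does the second peak of Kdm5a.

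**Figure D2:**
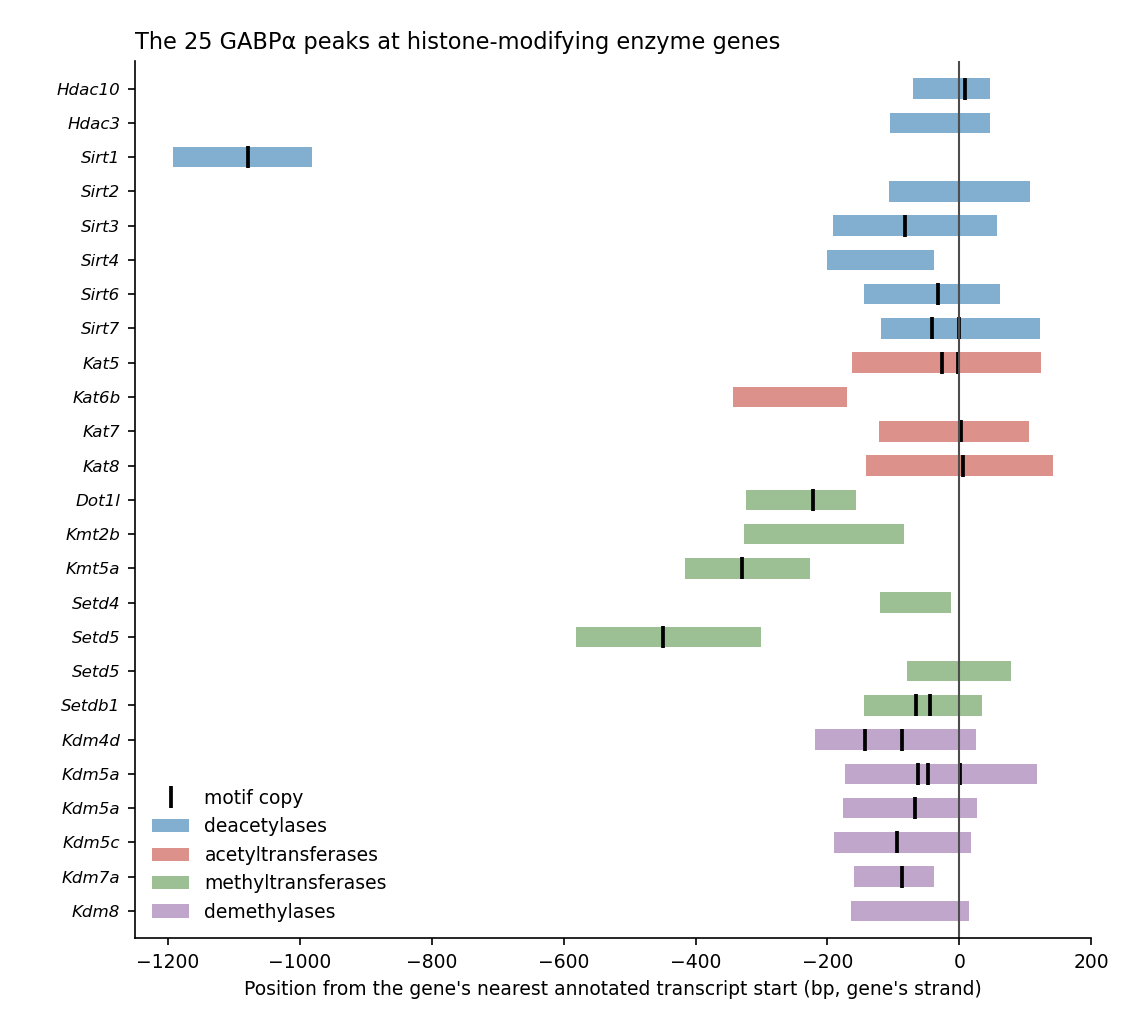
The 25 GABPα peaks at enzyme genes, drawn to scale from the gene's nearest annotated transcript start (horizontal axis, bp on the strand of the gene, negative upstream). Bars are peaks, coloured by class, and black ticks are CCGGAAG copies on either strand. A start of the gene lies inside 16 of the 25 peaks, and the peak at Sirt1 lies 982 bp away.

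The 4 acetyltransferase genes with a peak all encode catalytic subunits of the MYST family. Kat5, the Tip60 enzyme of the NuA4 complex, had a peak of 287 bp at chr19:5609928-5610214 with 2 copies of the motif, 2 and 27 bp before a start and both on the strand of the gene, of which one is shown above. Kat8, the MOF enzyme that acetylates histone H4, had a peak of 284 bp at chr7:127912374-127912657 centred on its start, with a copy 5 bp downstream. Kat7, the HBO1 enzyme, had a peak of 228 bp at chr11:95310103-95310330 with a copy 3 bp downstream of a start. These 3 peaks are each centred within 20 bp of a start. Kat6b, the MORF enzyme, stood apart. Its peak of 172 bp at chr14:21500510-21500681 is in an intron, 172 bp from an internal start and 19076 bp from the outermost one, and holds no CCGGAAG. The closest copy is 19064 bp away, in the promoter of the outermost start. Kat2a (GCN5), Kat2b (PCAF), Kat6a (the paralogue of Kat6b) and Kat14 had no peak.

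Among the sirtuins, peaks were present at genes for products of the nucleus, the cytoplasm and the mitochondrion. Sirt6 and Sirt7 encode nuclear enzymes, the latter of the nucleolus. Sirt7 had a peak of 241 bp at chr11:120624871-120625111 with 2 copies of the motif, one on a start and one 42 bp before another start. Sirt6 had a peak of 205 bp at chr10:81627506-81627710 with 1 copy 32 bp before a start. Both peaks cover internal starts, and their midpoints lie 249 and 189 bp downstream of the outermost start, in 5′ UTR sequence.

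Sirt3 and Sirt4 encode mitochondrial enzymes. Sirt3, the main mitochondrial deacetylase, had the widest deacetylase peak, 249 bp at chr7:140882253-140882501, with the copy shown above 82 bp before the start on the opposite strand. The same interval covers a start of Psmd13, a proteasome subunit gene. Sirt4 had a peak of 162 bp at chr5:115484406-115484567, 40 bp from a start, which holds GGAA 3 times but no CCGGAAG.

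Sirt2, whose product is largely cytoplasmic and deacetylates tubulin, had a peak of 214 bp at chr7:28766628-28766841, centred on its start and also covering a start of Nfkbib, an inhibitor of NF-κB. It holds no CCGGAAG, and the closest copy is 2012 bp away. Sirt1, a nuclear deacetylase, is the gene nearest to the limit of the window. Its peak of 212 bp at chr10:63382686-63382897 lies 982 bp from the start of Sirt1 and 243 bp from a start of Dnajc12, a gene for a co-chaperone, so that in windows of 250 or 500 bp Sirt1 had no peak. Sirt5, the mitochondrial desuccinylase, was the sirtuin without a peak. The nearest one lay 18551 bp away, at Nol7.

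Of the Hdac genes, Hdac3 and Hdac10 had a peak. Hdac3, the catalytic subunit of the NCoR and SMRT corepressor complexes, had a peak of 151 bp at chr18:37954971-37955121 that covers its outermost start and also a start of Rell2, and holds GGAA 3 times without CCGGAAG. Hdac10, a class IIb enzyme known as a polyamine deacetylase, had a peak of 117 bp at chr15:89128654-89128770 with a copy 8 bp downstream of a start. The other class I genes (Hdac1, Hdac2 and Hdac8), the 4 class IIa genes (Hdac4, Hdac5, Hdac7 and Hdac9), Hdac6 of class IIb and Hdac11 of class IV had none. Hdac9 was the farthest of all 67 genes from a peak, at 1121835 bp.

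The 5 demethylase genes with a peak included both Kdm5a and Kdm5c, which encode demethylases of lysine 4 of histone H3, while the other genes of that subfamily, Kdm5b and Kdm5d, had none. Kdm5d is on the Y chromosome, and the sex of the mice of this library is not given in the sources used here. At Kdm5a the first peak, 291 bp at chr6:120363950-120364240, was the widest of all 25 and held 3 copies of the motif, all on the strand of the gene. They lay 62 and 48 bp before and 1 bp after the start nearest to each copy. The second, 203 bp at chr6:120364282-120364484, had a copy on the opposite strand and covered a start of Ccdc77 as well as a start of Kdm5a. Kdm5c, on the X chromosome, had a peak of 208 bp at chrX:152232830-152233037 with a copy 95 bp before a start.

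Kdm4d, a demethylase of lysine 9 of histone H3, had a peak of 245 bp at chr9:14500457-14500701 with the 2 copies shown above, 87 and 143 bp before its start, and the interval also covers a start of Cwc15, a splicing factor gene. Kdm7a had a peak of 122 bp at chr6:39206828-39206949, 39 bp from its start, with a copy 87 bp upstream. This peak was the richest in CpG of the 25, at 24.6 per 100 bp against a median of 7.63 at the enzyme genes and 8.84 for coding-start peaks. Kdm8 had a peak of 178 bp at chr7:125444512-125444689 with no CCGGAAG, the closest copy being 432 bp away. No peak was found at Kdm1a, Kdm1b, Kdm2a, Kdm2b, Kdm3a, Kdm3b, Kdm4a, Kdm4b, Kdm4c, Kdm6a or Kdm6b. Kdm6b, which removes the methyl mark set by Polycomb complexes, came closest, with a peak of 117 bp inside the gene, 4024 bp from a start. It is the nearest gene outside the window, as Sirt1 is the last one inside it.

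The methyltransferase peaks lay farther from a start than those of the other classes, with midpoints at a median of 206 bp upstream (range 442 to 1.50 bp, 7 peaks), against medians of 14.2, 36 and 81 bp upstream for 4 acetyltransferase, 8 deacetylase and 6 demethylase peaks, whose ranges overlap theirs. Setdb1 and the second peak of Setd5 were the ones that cover a start. Setdb1, which methylates lysine 9 of histone H3 and silences retroelements, had a peak of 180 bp at chr3:95357168-95357347 with 2 copies, 44 bp before the start on the opposite strand and 65 bp before it on the strand of the gene, as shown above. Setd5, a SET domain gene, had its wide peak of 281 bp at chr6:113076783-113077063 with 1 copy 449 bp before the start, and a second of 158 bp at chr6:113077285-113077442 centred on the start with no CCGGAAG. Both lie within 1000 bp of a start of the noncoding Gt(ROSA)26Sor as well.

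Dot1l, which methylates the globular core of histone H3, had a peak of 166 bp at chr10:80754883-80755048, 158 bp from its start, with 1 copy. Kmt5a, which monomethylates lysine 20 of histone H4, had a peak of 189 bp at chr5:124439514-124439702 with 1 copy 330 bp before the start. Kmt2b, a trithorax-group enzyme for lysine 4 of histone H3, had the widest peak without CCGGAAG, 243 bp at chr7:30588811-30589053, shown above with its CGGAAG. Setd4 had the narrowest of the 25, 109 bp at chr16:93603828-93603936, and a CCGGAAG lies 18 bp outside it. No peak was found at Kmt2a, Kmt2c, Kmt2d, Kmt2e, Kmt5b, Kmt5c, Setd1a, Setd1b, Setd2, Setd3, Setd6, Setd7 or Setdb2, nor at Ezh1 and Ezh2, the catalytic subunits of Polycomb repressive complex PRC2, or Ehmt1 and Ehmt2, which dimethylate lysine 9 of histone H3.

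At 8 of the 25 peaks (32.0%, 17.2 to 51.6) a start of another coding gene also lay within 1000 bp, against 20.7% of coding-start peaks. These were the peaks at Hdac3, Sirt1, Sirt2, Sirt3, Sirt6 (830 bp from Ankrd24), Kdm4d and the 2 at Kdm5a. A peak between starts of different genes cannot be assigned to one of them from its position.

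Whether the enzyme genes carry the motif near their starts was asked independently of the peaks, in the 300 bases from 250 before to 50 after each annotated start. CCGGAAG was present at a start of 20 of the 67 genes (29.9%, 20.2 to 41.7), against 17.4% of coding genes. At the outermost start alone, which does not depend on how many starts are annotated, it was present in 13 of 67 (19.4%, 11.7 to 30.4), against 10.8% of coding genes. Counted singly, 10.4% of the promoters of all coding starts hold it. Among these 20 genes, 16 had a peak (80.0%, 58.4 to 91.9), against 59.4% of coding genes with a promoter copy. Among the 47 enzyme genes without a promoter copy, 7 had a peak (14.9%, 7.41 to 27.7), against 8.92% of coding genes. By class, a promoter copy was present at 4 of 8 acetyltransferase, 6 of 18 deacetylase, 6 of 18 demethylase and 4 of 23 methyltransferase genes. All 4 acetyltransferase genes with a promoter copy had a peak and none of the 4 without one did, although the peak at Kat6b is not at its copy. At Sirt4 too the peak and the promoter copy are apart, the copy closest to the peak being 1123 bp away, and at Setd4 a copy lies 18 bp outside the peak.

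**Figure D3:**
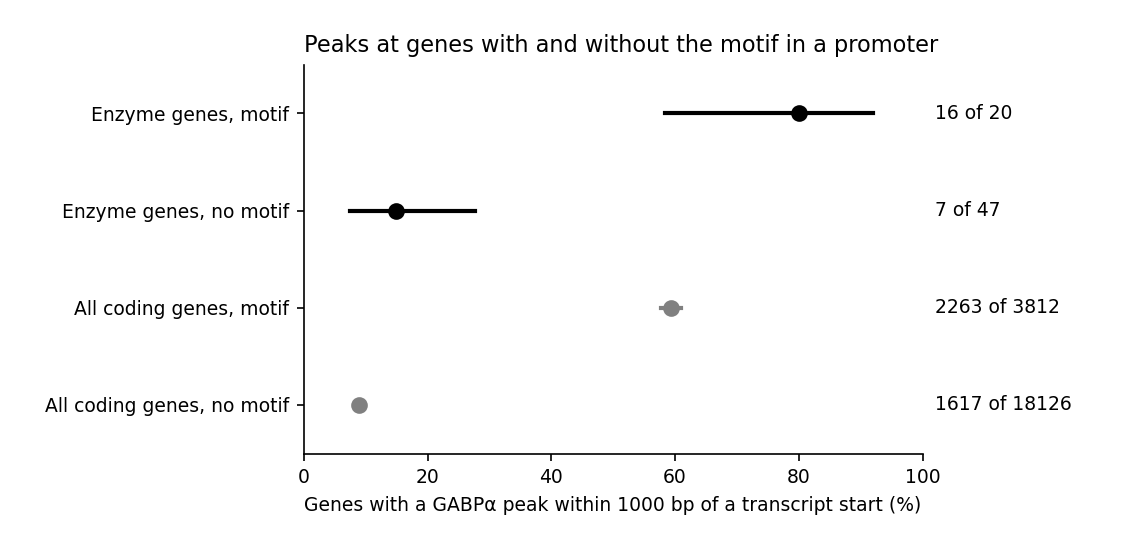
Share of genes with a GABPα peak (horizontal axis, percent) among enzyme genes and all protein-coding genes, split by whether CCGGAAG occurs from 250 bases before to 50 after any annotated start. Points are shares, bars Wilson 95% intervals, and the numbers at the right genes with a peak of all genes. The share was 80.0% with a promoter copy and 14.9% without among enzyme genes.

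The 7 genes with a peak but no promoter copy were Hdac3, Sirt1, Sirt2, Kdm8, Kmt2b, Kmt5a and Setd5. In Sirt1, Kmt5a and Setd5 the peak itself holds CCGGAAG farther upstream than the promoter window reaches, while Hdac3, Sirt2, Kdm8 and Kmt2b had it in neither. Conversely, 4 genes had a promoter copy and no peak, and their sites are shown as 30 bases on the strand of the gene, 5′ to 3′ in mm10, with CCGGAAG or CTTCCGG in capitals. In Kdm2b it lies 93 bp before the start on the opposite strand. In Kdm3a and Setd6 it lies 23 and 9 bp before an internal start, and in Sirt5 32 bp after an internal start, all on the strand of the gene. In Kdm3a, Setd6 and Sirt5 the copy is thus downstream of the outermost start, and at Setd6 it still lies within the promoter window of that start.
Kdm2b, chr5:122989902-122989931, minus strand: accaaaggctttCTTCCGGtcagctgcagt
Kdm3a, chr6:71632695-71632724, minus strand: cgagtcggcggcCCGGAAGcggggggcggg
Setd6, chr8:95715892-95715921, plus strand: ccagctccgccCCGGAAGcgcagtgaggac
Sirt5, chr13:43365704-43365733, plus strand: gaaggcagtgaCCGGAAGgaagggcacttt

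The 44 enzyme genes without a peak did not lack CpG at their promoters. The promoter of the outermost start held a median of 22.5 CpG (interval 19 to 28) in these genes and 17 (14 to 22) in the 23 with a peak. Among coding genes the order was the other way, with medians of 8 without and 21 with a peak. The nearest peak of the 44 genes lay at a median of 64150 bp (interval 54882 to 111895), against 91699 bp for coding genes without a peak. In each class the nearest was Sirt5 at 18551 bp, Kat2a at 25616 bp, Kmt2d at 5498 bp and Kdm6b at 4024 bp. The peak nearest to Kmt2d is at Prkag1 and holds CCGGAAG. Setd1b, at 8229 bp, and Kdm6b were the genes without a peak at a start that had one in the gene body. The farthest in each class were Hdac9 at 1121835 bp, Setd3 at 586519 bp, Kdm4c at 333605 bp and Kat6a at 157802 bp.

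**Figure D4:**
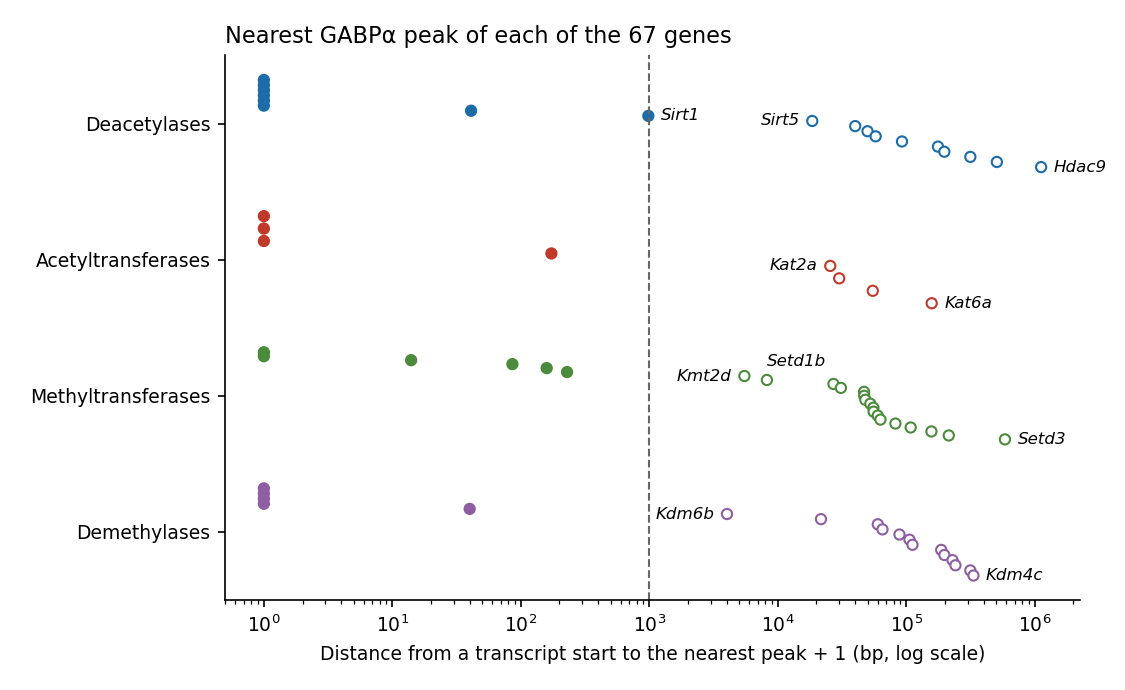
Distance from an annotated start to the nearest GABPα peak for each of the 67 enzyme genes, by class (horizontal axis, bp plus 1, log scale; vertical offsets within a class only separate the points). Filled points are the 23 genes with a peak within 1000 bp (dashed line) and open points the 44 without, of which Kdm6b at 4024 bp is the nearest and Hdac9 at 1121835 bp the farthest.

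Most of these enzymes work in complexes, and the genes of their partners, all of which matched the annotation by symbol, are given by complex. These lists were chosen with earlier results of these data known. The intervals of the 4 partner lists overlap, and no difference between lists was tested. Of 50 partner genes of acetyltransferase complexes, 23 had a peak (46.0%, 33.0 to 59.6), against the background of 17.7%. They included the NuA4 genes Ep400, Brd8, Dmap1, Ruvbl1, Ruvbl2, Morf4l2 and Actl6a, which work with Kat5, and the ING family genes Ing4 and Ing5, which work with Kat7. Genes of the complexes of Kat8 (Msl2, Msl3, Kansl1, Kansl2 and Mcrs1) and of the SAGA and ATAC complexes of Kat2a and Kat2b (Tada2b, Tada3, Supt7l, Supt20, Taf5l, Atxn7l3, Eny2, Zzz3 and Dr1) had peaks too. Without a peak were Trrap, Epc1, Epc2, Ing3, Yeats4, Morf4l1, Mrgbp and Vps72 of NuA4, the scaffold genes Jade1, Jade2, Jade3, Brpf1, Brpf3 and Brd1 and also Meaf6 of the Kat6 and Kat7 complexes, Msl1, Kansl3 and Phf20 of the Kat8 complexes, and Tada1, Tada2a, Sgf29, Supt3, Taf6l, Atxn7, Usp22, Yeats2 and Mbip of SAGA and ATAC. Dmap1 and Mcrs1 had peaks of 328 and 329 bp with 2 copies of CCGGAAG each.

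Partner genes of deacetylase corepressor complexes had a peak in 11 of 29 cases (37.9%, 22.7 to 56.0): the SIN3 complex genes Sap130, Suds3, Arid4a, Arid4b, Ing1 and Ing2, the CoREST gene Rcor1, the NCoR complex gene Gps2, and the NuRD genes Mta2, Gatad2a and Mbd2. Mta2 and Gatad2a had 2 peaks each. The wider peak at Mta2 measured 336 bp, and 3 copies of CCGGAAG were counted for that gene. The class I genes Hdac1 and Hdac2, whose products are the catalytic subunits of the SIN3, CoREST and NuRD complexes, had none. Among COMPASS partners of the H3 lysine 4 methyltransferases 3 of 12 had a peak (25%, 8.89 to 53.2: Rbbp5, Cxxc1 and Hcfc1), and among PRC2 partners 2 of 9 did (22.2%, 6.32 to 54.7: Rbbp4 and Phf1). Both intervals contain the background as well as the shares of the 2 larger partner lists.

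Histone enzyme genes with other symbols had a peak in 2 of 6 cases for acetyltransferases (33.3%, 9.68 to 70: Hat1 and Taf1), 2 of 8 for demethylases (25%, 7.15 to 59.1: Jmjd6 and Riox2) and 2 of 18 for methyltransferases (11.1%, 3.10 to 32.8: Prdm2 and Prdm9). All 3 intervals contain the background of 17.7%. Ep300 and Crebbp, the general coactivator acetyltransferases, had none. Each of the 6 genes with a peak had a single peak with 1 copy of CCGGAAG.

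**Figure D5:**
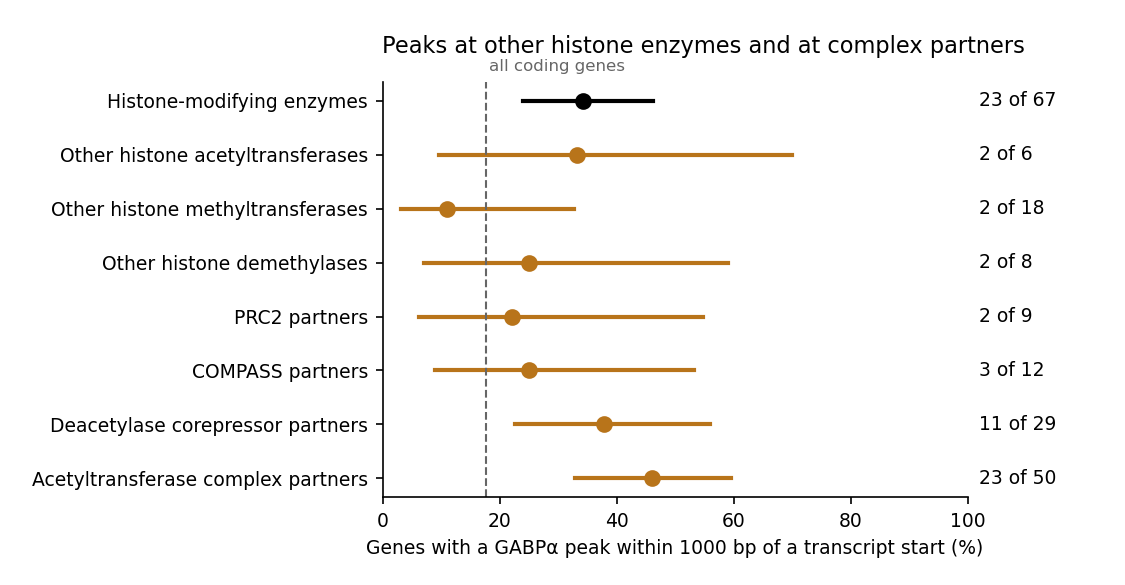
Share of genes with a GABPα peak within 1000 bp of an annotated start (horizontal axis, percent) for the 67 enzyme genes and 7 lists of related genes. Points are shares, bars Wilson 95% intervals, numbers at the right genes with a peak of all genes, and the dashed line the 17.7% of all protein-coding genes. Partners of acetyltransferase complexes stand at 46.0% and other histone methyltransferases at 11.1%. The lists were chosen with earlier results of these data known.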

How the data were processed

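GABPα-bound DNA and input DNA of CD4+ T cells were sequenced by the authors as 36-bp reads, trimmed with Trimmomatic, aligned to mm10 with Bowtie and turned into peaks against the input with MACS2, with a limit on the q value. The versions are not given in the sources used here. The authors deposited the start and end position of each peak, with an empty score column, so the depth is unknown from it. Starts were read as 0-based and written as 1-based positions. Peaks were placed on GENCODE M21 starts. CCGGAAG was searched on the mm10 (GRCm38.p6) sequence, and 36-base sequences were counted over both strands of the chromosomes. Gene classes, related lists and members were chosen with earlier results of these data known. Genes were named by rule: every member, the nearest and farthest without a peak in each class, and related genes with a peak. Shares have Wilson 95% intervals and medians order-statistic intervals. Nothing was tested across conditions, since there is 1 ChIP library. The alternatives covered the window, transcripts, peaks, gene lists and motif. Scripts were tested on simulated data. Python 3.11.15, numpy 2.4.6, pandas 2.3.3, scipy 1.17.1, pysam 0.24.0, numba 0.67.0, samtools 1.23.1 and matplotlib 3.10.9 were used.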

Additional observations from a re-analysis of the deposited data

How the results depend on the processing

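Of 62 alternatives to the share of genes with a peak, overall and by class, to the share of peaks with the motif and to the median width, 57 left the value within its 95% interval or spread. The intervals of small classes are wide (21.5 to 78.5% for the acetyltransferases), so staying within them says little about stability. A window of 2000 bp, basic or protein-coding transcripts only, and peaks under 50% soft-masked changed no enzyme gene at all. Counting only starts that lie inside a peak moved the share of all enzyme genes to 22.4% (15 of 67), against 13.9% of coding genes, and that of methyltransferases to 8.70% (2 of 23). The 8 genes lost were Dot1l, Kat6b, Kdm7a, Kmt2b, Kmt5a, Setd4, Sirt1 and Sirt4. With the alternatives applied to the sirtuins and Hdac genes, a choice made after seeing the data, the sirtuins ranged from 57.1% to 85.7%, and the Hdac genes stood at 18.2% except when narrower peaks than the median were left out, with 0 of 11 (interval up to 25.9%). Leaving the sirtuins out moved the share of deacetylases to 18.2%. Searching GGAAG or GGAA in place of CCGGAAG moved the share of peaks with the motif to 88.0% and 100%. A window of 5000 bp added Kdm6b, and peaks at or above the median width of the list left out Hdac10, Hdac3, Kdm7a and Setd4. No paired analysis was possible because there is 1 ChIP library and no test. The list analysed here holds no score, so the strength of a peak was not compared, and a gene without a peak is not shown to be unbound.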
